A study of Homo sapiens with 12 samples.

Results

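PTCD2 and 9 other nuclear genes whose proteins act on RNA or DNA inside mitochondria were followed in 3 human cell lines, each with the wild-type and the mutant form of U1. The 10 genes were PTCD1, PTCD2, PTCD3, LRPPRC, SLIRP, FASTKD1, FASTKD2, FASTKD5, ELAC2 and EXOG, taken by symbol from the 57820 genes of the count table. Of 170723 splice junctions, 187 were placed in these genes, and 117 of them held at least 20 reads over all columns. PTCD2 was chosen because 1 of its junctions differed between mutant and wild-type cells. Its mutant and wild-type values are therefore given as a description, with no test. The other 9 genes were taken by name, and whether their values played a part in the choice is not recorded. Their adjusted p-values come from fits of the whole table and say nothing about the 10 genes as a group.

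JVM3, HG3 and MEC1 are labelled as chronic lymphocytic leukaemia lines, a cancer of mature B cells. In each line, cells with wild-type U1 were set beside cells carrying U1 g.3A>C, which gave 6 groups of 2 technical replicates, or 12 libraries. Sources used here do not say how the mutant U1 was brought into the cells. Libraries held 29880079 to 39716818 counts, and the junction table had 6 columns, taken as pooled replicates, of 15537369 to 17917160 reads. The B cell markers MS4A1, CD79A, CD79B, PAX5, CD22 and CD74 were each above 1 CPM in every library, with MS4A1 at 705 to 1360 CPM and CD74 at 1310 to 3300 CPM. CPM are counts per 1000000 counts of the library, scaled here by TMM factors. The markers of T, myeloid and epithelial cells summed to at most 4.24 CPM per list, and the erythroid gene HBB stood at no more than 0.766 CPM.

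Human mitochondria copy their genome into long transcripts that hold messenger, ribosomal and transfer RNAs. The transfer RNAs are cut out at both ends, which frees the RNAs between them, and binding proteins then stabilise, modify and translate these RNAs. Pentatricopeptide repeat proteins such as PTCD1, PTCD2, PTCD3 and LRPPRC, and the FASTK family, bind mitochondrial RNA. All are made from nuclear genes, whose own transcripts are spliced with the help of U1, a small nuclear RNA that recognises the start of an intron (the donor, or 5′ splice site) by base pairing. In the textbook pairing, nucleotide 3 of U1 stands opposite the sixth base of the intron.

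The PTCD2 splice sites are shown because the junction that chose the gene joins them. They were read from a GENCODE 29 transcript that runs through the intron, and they are written 5′ to 3′. In donors the capitals mark the last 3 exon bases and the first 6 intron bases. In acceptors, the ends of introns, they mark the closing AG. Positions are on chromosome 5, plus strand, in hg19, and name the exon base next to the intron.
Annotated donor at 71654650: attcagGAGGTATGAaaccct
New exon acceptor at 71655248: acttgctccttttgtttcAGaaagc
New exon donor at 71655354: tgttctAAGGCAAGGattata
Last exon acceptor at 71655431: ttaattccttcatctttcAGgttaa
The annotated donor lies 396 bases past the stop codon, so these sites are in the 3′ untranslated region. GENCODE 29 lists this intron in a transcript of the nonsense-mediated decay type. The new exon of 107 bases is in no transcript of GENCODE 29. Its donor opens with GC in place of the usual GT and has G as its sixth intron base, and the annotated donor has A. Among 48294 annotated donors that another transcript reads through, 93.4% opened with GT and 3.79% with GC. At the sixth base, A was found in 18.1% of them, C in 18.2%, G in 22.3% and T in 41.3%. These are letters in the reference and no measure of binding.

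PTCD2 encodes a pentatricopeptide repeat protein that is known in mice for its part in processing the transcript that carries cytochrome b. The junction into the new exon had 4 reads in mutant JVM3, 20 in mutant HG3 and 17 in mutant MEC1, and 0 in each wild-type column. The junction out of the new exon had 4, 14 and 19 reads in the mutant columns in the same order, against 0, 0 and 2 in the wild-type columns. The annotated junction, which skips the new exon, had 1, 3 and 2 mutant reads and 9, 13 and 17 wild-type reads. Thus the new exon was read almost entirely from mutant cells of every line, and the skipping junction mostly from wild-type cells.

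At the last exon's acceptor, the new exon took 3.51% ± 6.08 of the reads in wild-type and 84.3% ± 5.5 in mutant cells (SD, n = 3 lines). The acceptor held only 84 reads over the 6 columns. In mutant JVM3 the share was 80% of 5 reads, with a 95% Wilson interval of 37.6% to 96.4%. In wild-type JVM3, 0 of 9 reads allow a share of up to 33.3%. Counted at the annotated donor, the new exon took 0% in each wild-type line and 85.5% ± 4.91 in the mutants (SD, n = 3 lines). In the mutant columns the shares at the acceptor and the donor were 80% and 80% in JVM3, 82.4% and 87% in HG3, and 90.5% and 89.5% in MEC1. In wild-type MEC1 they were 10.5% and 0%.

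**Figure D1:**
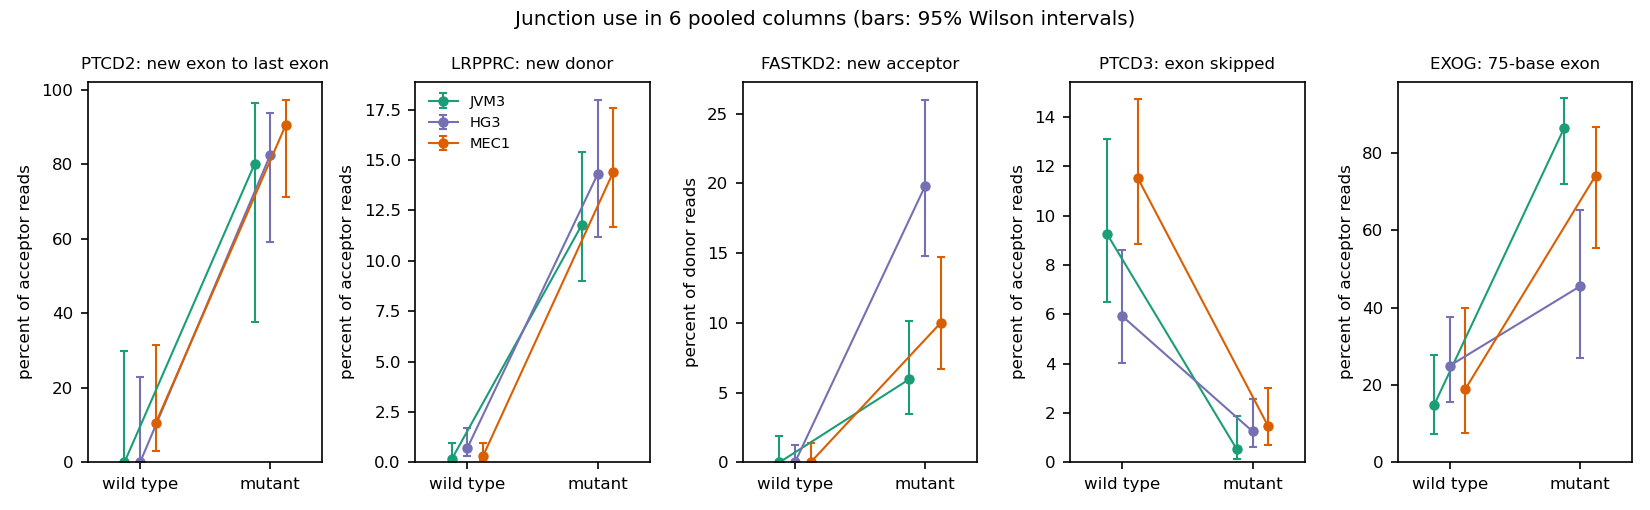
Share of junction reads at a splice site in wild-type and mutant columns of JVM3, HG3 and MEC1 for 5 genes, in percent on axes of different height, with 95% Wilson intervals. The new PTCD2 exon goes from 0% or 10.5% in wild-type to 80% or more in mutant columns, and the PTCD3 skipping junction falls in each line.

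Upstream in PTCD2, the annotated junction 71627202 to 71631621, the longer of 2 from that donor, took 8.34% ± 0.892 of its donor's reads in wild-type and 14.5% ± 3.96 in mutant cells (SD, n = 3 lines). It was higher in the mutant column of every line, by 9.96 points in JVM3, 3.19 in HG3 and 5.37 in MEC1. All annotated junctions upstream of the last coding exon had, per 1000000 junction reads, JVM3, HG3 and MEC1 ratios of 0.912, 1.24 and 0.934, mutant over wild type.

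The PTCD2 RNA level stood at 14.4 and 13.7 CPM in wild-type JVM3 and at 14.5 and 13.8 in mutant JVM3. In HG3 it stood at 12.4 and 12.9 CPM in wild-type and 13.9 and 15.8 in mutant libraries. In MEC1 it stood at 18.6 and 19.7 CPM in wild-type and 14.5 and 15.3 in mutant libraries. Mutant libraries were lower in MEC1, higher in HG3 and overlapping in JVM3. The log2 fold changes were 0.02 in JVM3, 0.23 in HG3 and -0.36 in MEC1, and -0.04 in the fit across lines. Between wild-type lines, which the choice of the gene did not use, PTCD2 was higher in MEC1 than in JVM3 by 0.45 and than in HG3 by 0.60 on the log2 scale (adjusted p = 3.07e-06 and 9.47e-09, edgeR). HG3 and JVM3 differed by -0.15 (adjusted p = 0.12, edgeR). Of all genes 71.8% passed between MEC1 and JVM3, 67.5% between MEC1 and HG3 and 63.4% between HG3 and JVM3. Tests within and between lines rest on technical replicates, so they measure technical spread only.

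Among the genes whose level was most like that of PTCD2 over the 12 libraries were CPSF2 (Pearson r 0.94), OGT (0.926), ACTR10 (0.918) and ERBIN (0.914). They were taken from 14610 genes with a mean of at least 1 CPM. The libraries share lines and U1 status, so these r values describe 6 groups more than 12 separate points.

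LRPPRC, which binds mitochondrial messenger RNAs and keeps them stable, was the member whose RNA fell across the lines. It stood at 365 and 384 CPM in wild-type JVM3 and at 250 and 250 in mutant JVM3. In HG3 the values were 436 and 441 CPM in wild-type and 267 and 260 in mutant libraries. In MEC1 they were 518 and 554 CPM against 305 and 325. Every mutant library lay below every wild-type library of all 3 lines. The log2 fold change was -0.70 (SE 0.056 over 3 lines), by line -0.58, -0.73 and -0.77 for JVM3, HG3 and MEC1 (adjusted p = 0.0056, edgeR). Of all 21270 genes tested, 3.69% passed this test, 1.86% by falling. Of the 9 members tested, 1 fell and 0 rose, where 1.83% of all genes rose. These are bulk samples, in which fewer cells of a type and less RNA per cell cannot be told apart.

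The junctions gave a second count of LRPPRC RNA. Its annotated junctions held, per 1000000 junction reads, 251 in mutant against 409 in wild-type JVM3, 258 against 463 in HG3 and 350 against 615 in MEC1. The mutant to wild-type ratios were 0.614, 0.557 and 0.569. These columns come from the same libraries as the gene counts and are not independent of them.

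LRPPRC also used a donor that is in no annotated intron of GENCODE 29. The junction lies on chromosome 2, minus strand, at 44121768 to 44122507 in hg19, with the donor at the higher position. It had 46 reads in mutant JVM3, 58 in HG3 and 79 in MEC1, against 1, 5 and 3 in the wild-type columns. Its share of the acceptor's reads was 0.408% ± 0.289 in wild-type and 13.5% ± 1.46 in mutant cells (SD, n = 3 lines, adjusted p = 9.96e-10, diffSpliceDGE). The annotated junction to 44123773 took 97.7% ± 1.52 and 85.3% ± 2.13 and was not called (adjusted p = 0.785, diffSpliceDGE). The test rarely calls a junction that already holds most of its site's reads. The groups did not overlap at either junction. The annotated donor is shown because it is the site whose share was lower in mutant cells, read from a transcript that runs through the intron, with the capitals as above.
LRPPRC donor at 44123773: caaggaAAGGTACTGtgcttt
Its sixth intron base is G, as at the new PTCD2 donor, whose share was higher in mutant cells. The letters at the new LRPPRC donor were not read, and the part of this base in either change was not tested.

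SLIRP is the small partner of LRPPRC and binds mitochondrial messenger RNAs with it. It ran from 33.2 to 41.7 CPM over the 12 libraries, with a median of 39.7. The log2 fold change was 0.08 (SE 0.0801, adjusted p = 0.663, edgeR), with 0.20 in JVM3, -0.07 in HG3 and 0.11 in MEC1. In JVM3 the mutant libraries, at 38.2 and 41.5 CPM, lay above the wild-type ones, at 33.2 and 36.2 (adjusted p = 0.022, edgeR). In HG3 and MEC1 the groups overlapped. None of its 6 junctions tested at acceptors was called.

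FASTKD2, a protein of mitochondrial RNA granules that binds the large ribosomal RNA, stood at 51.2 and 52.4 CPM in wild-type and 48.5 and 49.3 in mutant JVM3. In HG3 it stood at 73.1 and 73.5 CPM in wild-type and 52.2 and 53.5 in mutant libraries. In MEC1 the values were 66.5 and 69.2 CPM against 50.1 and 54.8. The mutant libraries were lower in each line, least so in JVM3. The fit across lines gave -0.31 (SE 0.116, adjusted p = 0.103, edgeR) and did not pass. Within lines the values were -0.08 in JVM3 (adjusted p = 0.258), -0.47 in HG3 (adjusted p = 4.3e-11) and -0.37 in MEC1 (adjusted p = 1.56e-08, each by edgeR). Within lines 22.4%, 38.3% and 36.6% of all genes passed in JVM3, HG3 and MEC1.

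A junction to an unannotated acceptor in FASTKD2 was read only in mutant columns. It lies on chromosome 2, plus strand, at 207632194 to 207632934 in hg19, with 12 reads in JVM3, 38 in HG3 and 22 in MEC1 and 0 in each wild-type column. It took 11.9% ± 7.11 of its donor's reads in mutant cells (SD, n = 3 lines) and 0% in wild-type, where 0 of 201, 302 and 276 reads allow up to 1.49%, 0.993% and 1.09%. Grouped by donor it passed (adjusted p = 0.000234, diffSpliceDGE), and it has no competitor at its acceptor, so it could not be tested there. The share was highest in HG3, the line with the largest fall of FASTKD2 RNA, and lowest in JVM3. That order rests on 3 lines and was not tested. Annotated FASTKD2 junctions had JVM3, HG3 and MEC1 ratios of 0.842, 0.66 and 0.728, mutant over wild type, per 1000000 junction reads. With limma on log ratios the junction did not pass (adjusted p = 0.0743). Between the new acceptor and the next annotated exon, 1 unannotated junction began, at 207634640, with 8 reads over all columns.

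Of the 187 junctions of the 10 genes, 2 (1.07%) had at least 3 reads in every mutant column and 0 in every wild-type column, those of PTCD2 and FASTKD2 named above. The PTCD2 junction enters the exon whose use chose the gene. The choice therefore raised the 1.07%, which cannot be compared with the share over all junctions. In the other genes only the FASTKD2 junction was read in this way. None of the 187 showed the opposite pattern. Over 170695 junctions with a strand, 163 (0.0955%) were read in this way in mutant columns and 25 (0.0146%) in wild-type columns.

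PTCD3, a protein of the small mitochondrial ribosomal subunit, shifted in splicing, and its RNA level did not pass across lines. An annotated exon of 86 bases on chromosome 2, plus strand, at 86352918 to 86353003 was skipped less often in mutant cells. The exon is shown because its length is no multiple of 3, so that skipping it changes the reading frame. The capitals mark its last 3 bases.
PTCD3 exon: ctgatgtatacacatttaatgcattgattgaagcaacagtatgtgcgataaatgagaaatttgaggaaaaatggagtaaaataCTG
The skipping junction, 86352638 to 86354284, had 2 of 380 acceptor reads in mutant JVM3, 7 of 554 in HG3 and 7 of 475 in MEC1. In wild-type columns it had 28 of 302, 25 of 422 and 52 of 453. Its share went from 8.89% ± 2.8 to 1.09% ± 0.498 (SD, n = 3 lines, adjusted p = 3.18e-05, diffSpliceDGE). Each mutant share lay below each wild-type share. At the donor the shares were 9.08% ± 3.81 and 1.11% ± 0.518 (adjusted p = 0.000971, diffSpliceDGE). With limma on log ratios the acceptor value did not pass (adjusted p = 0.0727). PTCD3 RNA ran from 139 to 218 CPM, and its log2 fold change was 0.09 (adjusted p = 0.601, edgeR; SE 0.0904). Within HG3 it passed, at 218 and 210 CPM in mutant against 175 and 181 in wild-type libraries (log2 fold change 0.27, adjusted p = 3.47e-07, edgeR). In JVM3 the mutant libraries also lay above the wild-type ones, at 144 and 147 against 139 and 143 CPM (adjusted p = 0.5, edgeR).

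EXOG, a nuclease of the mitochondrial inner membrane that acts in repair of mitochondrial DNA, shifted between annotated junctions, on few reads. An exon of 75 bases on chromosome 3, plus strand, at 38541581 to 38541655 occurs in annotated transcripts of the decay and retained intron types. At the acceptor 38542846, annotated junctions with fewer reads were left out, and shares count only junctions of at least 20 reads. Of their reads, the exon's junction had 32 of 37 in mutant JVM3, 10 of 22 in HG3 and 20 of 27 in MEC1. In wild-type columns it had 7 of 47, 14 of 56 and 4 of 21. The share was 19.6% ± 5.08 in wild-type and 68.7% ± 21 in mutant cells (SD, n = 3 lines, adjusted p = 0.0285, diffSpliceDGE). In HG3 the read number was lower in the mutant (10) than in the wild type (14), and the 95% Wilson intervals of the shares overlapped, at 26.9% to 65.3% and 15.5% to 37.7%. The call was lost without JVM3 (adjusted p = 0.388) and without MEC1 (adjusted p = 0.253, both by diffSpliceDGE). With junctions of at least 10 reads counted, the mean change was 35.4 points in place of 49 (adjusted p = 0.0474, diffSpliceDGE).

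Reads into the start of the EXOG exon did not match those out of its end. Into the start there were 8, 2 and 4 mutant reads and 3, 8 and 4 wild-type reads in JVM3, HG3 and MEC1. Out of the end there were 33, 10 and 21 mutant reads and 7, 14 and 4 wild-type reads. The competing junction from 38539269 took 59.6% ± 12.4 in wild-type and 24.9% ± 21.8 in mutant cells (SD, n = 3 lines, adjusted p = 0.0834, diffSpliceDGE). A longer annotated junction, from 38538021, took 20.7% ± 11 and 6.45% ± 7.59 (SD, n = 3 lines, adjusted p = 0.509, diffSpliceDGE). Its changes were -12.8, -11.5 and -18.5 points in JVM3, HG3 and MEC1. At its donor the shares were 22.4% ± 5.92 and 6.81% ± 9.29 (adjusted p = 0.402, diffSpliceDGE). The donor at 38539269 is shown because its junction had the lower mean change of the competitors (-34.8 points), although in HG3 the junction from 38538021 was lower by more (-11.5 against -8.93). It was read in the same way.
EXOG donor at 38539269: agataaTGGGTAGGTggttgg
EXOG RNA ran from 15.5 to 28.1 CPM, and its log2 fold change was -0.14 (SE 0.0215, adjusted p = 0.394, edgeR).

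Of 52 junctions of the 9 tested members at acceptors, 3 were called, those of LRPPRC, PTCD3 and EXOG. Over all 35857 junctions tested at acceptors, 2.78% were called. At donors 2 of 49 were called, in PTCD3 and FASTKD2, against 1.80% of 39252. FASTKD1, which is known for lowering the level of 1 mitochondrial messenger RNA, had shares of the longer junction that were higher in mutant cells by 7.11 and 8.53 points at 2 acceptors, most in MEC1. Neither was called (adjusted p = 0.734 and 0.516, diffSpliceDGE). No junction of SLIRP, FASTKD5 or ELAC2 was called at acceptors or donors. Of PTCD1, 2 junctions could be tested at acceptors and 0 at donors, and 0 were called.

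**Figure D2:**
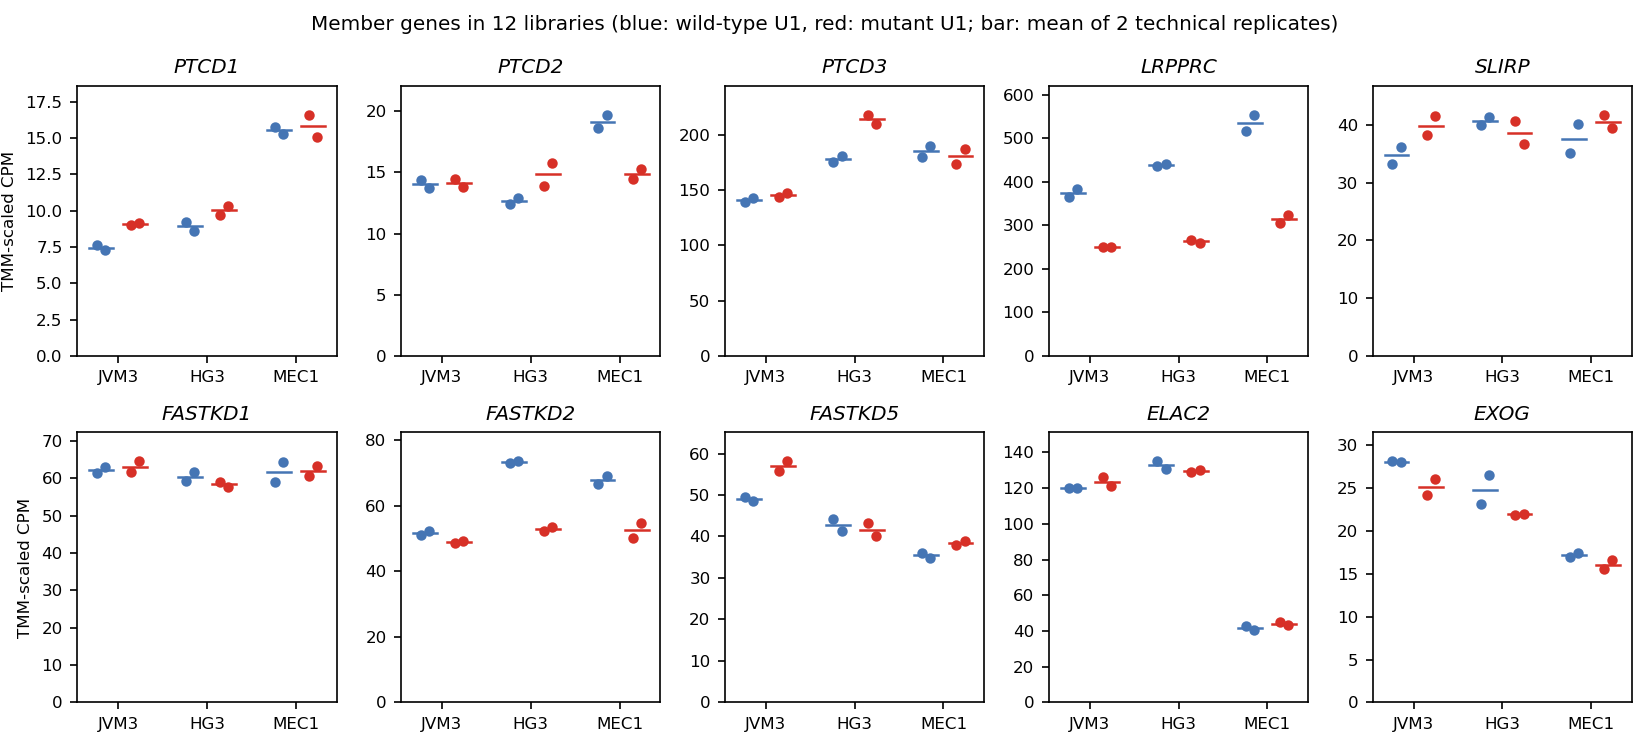
TMM-scaled CPM of the 10 genes in 12 libraries, by line, with wild-type U1 in blue, mutant U1 in red and bars at the mean of 2 technical replicates, on axes from 0. LRPPRC is lower in mutant libraries of each line, and ELAC2 is lower in MEC1 whatever the U1 status.

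The remaining members did not pass across lines. PTCD1, which is associated with mitochondrial leucine transfer RNAs, stood at 0.16 on the log2 scale (adjusted p = 0.466, edgeR; SE 0.0741). FASTKD1 stood at -0.01 (adjusted p = 0.969), FASTKD5, which acts on transcripts not flanked by transfer RNAs, at 0.09 (adjusted p = 0.599), and ELAC2, the enzyme that cuts the 3′ ends of transfer RNAs, at 0.02 (adjusted p = 0.905, each by edgeR). Within lines, PTCD1 and FASTKD5 passed in JVM3 (log2 fold changes 0.29 and 0.22, adjusted p = 0.0305 and 0.00133) and EXOG in HG3 (-0.17, adjusted p = 0.0476, each by edgeR). FASTKD1 had the narrowest range of the 10 genes, from 57.7 to 64.5 CPM.

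**Figure D3:**
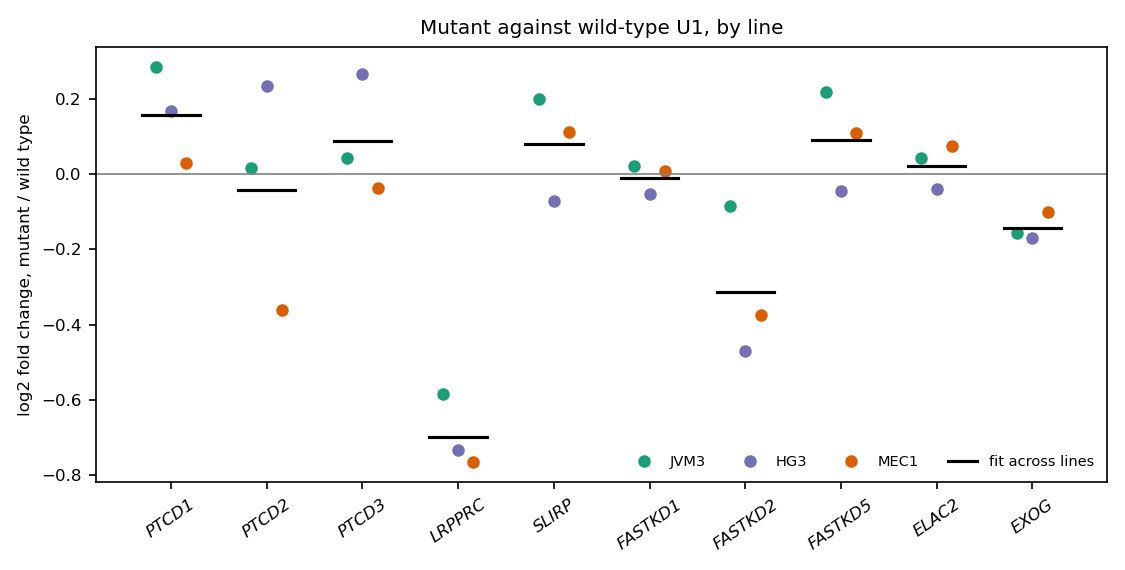
Log2 fold change of mutant against wild-type U1 for the 10 genes in JVM3, HG3 and MEC1 (points) and in the fit across lines (bars). LRPPRC lies between -0.58 and -0.77 in all lines, and PTCD2 runs from 0.23 in HG3 to -0.36 in MEC1.

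The size of the response differed between lines for 5 of the 9 tested members, by edgeR's test of the difference itself. These were FASTKD2 (adjusted p = 4.74e-05), PTCD3 (7.58e-05), LRPPRC (0.0115), FASTKD5 (0.0183) and SLIRP (0.0491). Of all genes 32.0% passed that test. Leaving out 1 library lowered the count to 3 in 4 of 12 cases, for JVM3 mutant replicate 2, JVM3 wild-type replicate 1, HG3 mutant replicate 2 and HG3 wild-type replicate 1. LRPPRC fell in each line, and FASTKD2 was lower in each, so there the lines differed in size. In PTCD3, SLIRP and FASTKD5 the sign differed between lines, but no value below 0 passed within its line. These were PTCD3 in MEC1 (-0.04, adjusted p = 0.534), SLIRP in HG3 (-0.07, 0.416) and FASTKD5 in HG3 (-0.04, 0.584, each by edgeR). A fall in those lines is therefore not shown.

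The wild-type lines differed from each other in 9 of the 10 genes, all but FASTKD1 (adjusted p = 0.734, edgeR), where 82.8% of all genes passed. ELAC2 showed the widest gap, with 42.9 and 40.8 CPM in wild-type MEC1, 120 and 120 in JVM3 and 135 and 131 in HG3. MEC1 was lower by -1.52 than JVM3 and by -1.67 than HG3 on the log2 scale (adjusted p = 3.94e-31 and 9.73e-33, edgeR). PTCD1 was higher in MEC1, at 15.8 and 15.3 CPM against 7.63 and 7.27 in JVM3, a log2 difference of 1.06 (adjusted p = 4.47e-14, edgeR). EXOG was lower in MEC1 than in JVM3, with a log2 difference of -0.71 (adjusted p = 3.28e-12, edgeR).

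Per kilobase of exon, LRPPRC had the highest median level (35.3 CPM per kb), followed by ELAC2 (19), PTCD3 (17.5), SLIRP (15.1), FASTKD5 (14.7), FASTKD1 (13.8), FASTKD2 (8.71), EXOG (4.32), PTCD1 (1.63) and PTCD2 (1.19). The place of ELAC2 held in JVM3 and HG3, with medians of 19 and 20.6 CPM per kb. In MEC1 its median was 6.8, below those of LRPPRC, PTCD3, SLIRP, FASTKD1, FASTKD5 and FASTKD2. LRPPRC did not overlap the next gene, with a lowest library at 25.6 CPM per kb against a highest of 21.2 for ELAC2. From ELAC2 down to FASTKD1 the ranges of neighbours overlapped. So did those of PTCD1 (1.25 to 2.85) and PTCD2 (1.02 to 1.63). Lengths are those of all annotated exons joined, which understates genes with long rarely used exons.

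Around these 10 genes, 75 other genes of mitochondrial gene expression were measured in lists grouped by function. Of the 75, 0 rose and 4 fell across lines, where 1.83% of all genes rose and 1.86% fell. MTERF2, of the mitochondrial transcription termination factor family, fell by 0.51 on the log2 scale (adjusted p = 0.0436), and NSUN4, a ribosomal RNA methyltransferase partner in ribosome assembly, by 0.48 (adjusted p = 0.0464, both by edgeR). Mean MTERF2 levels were 13.7 ± 4.03 CPM in wild-type and 9.77 ± 3.47 in mutant lines, and those of NSUN4 44.3 ± 10.2 and 31.8 ± 7.01 (SD, n = 3 lines). The mutant libraries lay below the wild-type libraries of the same line in both genes, in all 3 lines. Both lost their call when any 1 line was left out, with folds of -0.44 to -0.55 for MTERF2 and -0.34 to -0.55 for NSUN4 on the log2 scale. MTERF2 also lost it without JVM3 wild-type replicate 2 (adjusted p = 0.0517) or MEC1 wild-type replicate 2 (0.0663, both by edgeR). The 60 nuclear list genes had a median log2 fold change of 0.04, beside -0.01 over all genes tested. The 6 genes of transcript cutting and transfer RNA ends, the 6 of poly(A) tails and decay, the 3 other FASTK proteins, the 11 of transfer RNA modification and the 10 of mitochondrial DNA copying each had 0 calls.

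The other 2 genes that fell are transcripts of the mitochondrial genome itself. MT-CO3, a subunit of cytochrome c oxidase, stood at 1730 and 1750 CPM in wild-type and 1350 and 1280 in mutant JVM3. In HG3 it stood at 3350 and 3300 against 2380 and 2200 CPM, and in MEC1 at 3430 and 3060 against 2110 and 1860 CPM. Its log2 fold change was -0.55 (SE 0.0881, adjusted p = 0.0226, edgeR). MT-ND3, a subunit of complex I, had -0.46 (SE 0.0949, adjusted p = 0.0289, edgeR). Mutant libraries of each line lay below wild-type ones for both. MT-CO3 lost its call without JVM3 (adjusted p = 0.0666) or HG3 (0.067), and MT-ND3 without JVM3 (0.0701) or MEC1 (0.0917, each by edgeR). Their folds were then -0.64 and -0.56 for MT-CO3 and -0.53 and -0.36 for MT-ND3. The 15 mitochondrial transcripts come from shared long transcripts, so their values are not separate observations. Of the 15, 13 were below 0, beside 52.1% of all genes, and 2 passed. With DESeq2 7 of them passed, all 7 below 0, where 8.38% of all genes passed. Their median was -0.31, and by line -0.29, -0.24 and -0.44 for JVM3, HG3 and MEC1. The ribosomal RNA MT-RNR2 and MT-ND6 were the transcripts above 0, at 0.13 and 0.05 (adjusted p = 0.529 and 0.828, edgeR). Ribosomal RNA was depleted from these libraries and reads that did not align uniquely took 29.02% to 34.92%. Their part in the mitochondrial values was not tested.

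**Figure D4:**
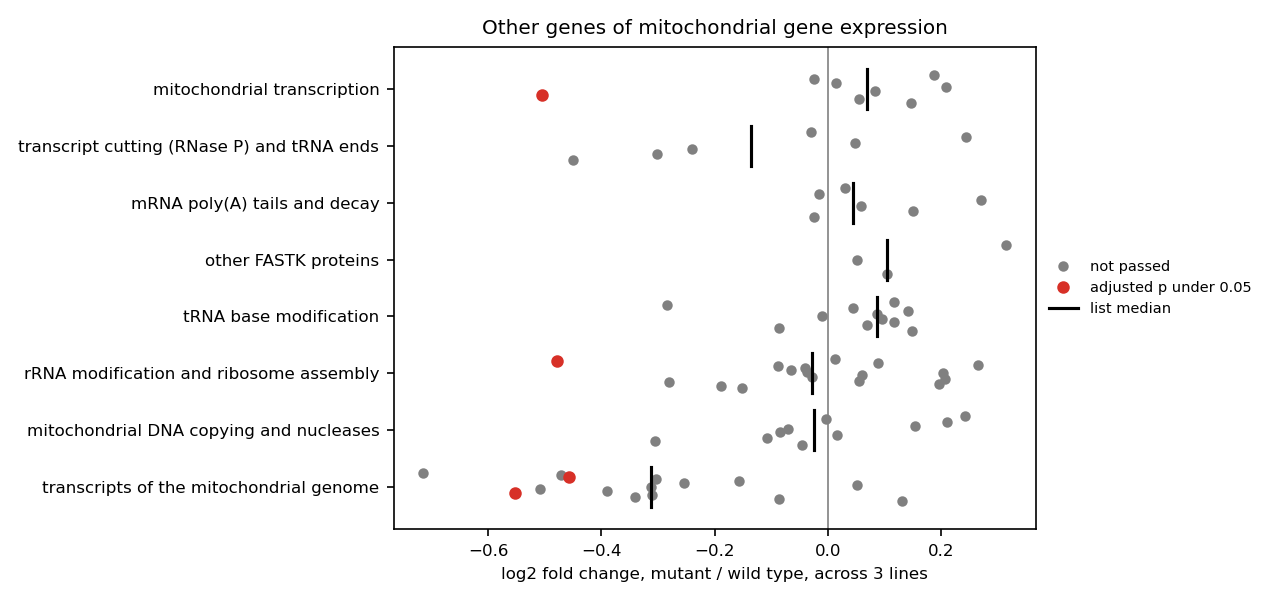
Log2 fold change of mutant against wild-type U1 across 3 lines for 75 genes of mitochondrial gene expression in 8 lists, 1 point per gene and list, with black bars at list medians and red points for genes with an adjusted p under 0.05. The transcripts of the mitochondrial genome lie mostly below 0, with a median of -0.31.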

How the data were processed

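Per the labels' protocols, total RNA was depleted of ribosomal RNA and made into stranded libraries. The submitters' processing notes name STAR 2.5.4b, HTSeq 0.9.1 and hg19 (GRCh37). Sources used here do not give the annotation release, the strand setting or how junctions were extracted. The authors deposited raw counts per gene for 12 libraries and raw junction counts in 6 pooled columns. Groups came from the labels. Lines that name no gene (17.72% to 24.93% of reads outside features) were left out. Replicates of a group differed by more than counting noise (mean chi-square per gene 2.28 to 5.29).

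The members and gene lists were chosen with earlier results of these data known. Gene counts went into edgeR 4.0.16 in R 4.3.3 (robust quasi-likelihood fit, TMM, filterByExpr) on replicates summed per line and U1 status, with the line as block and Benjamini-Hochberg adjusted p under 0.05. The 12 libraries as 6 groups gave tests within and between lines. Errors are SD over lines, or SE of the 3 lines' values. Junctions of at least 20 reads were tested with edgeR's diffSpliceDGE by shared acceptor, and a call needed adjusted p below 0.05, a share moved by 5 points or more on average, and 1 sign in all lines. Shares are of the reads of such junctions at a site. Intervals are 95% Wilson intervals, and a count of 0 allows 3 counts. Both cover counting error only.

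Tested on simulated data, the gene fit recovered the changes put in. These were the same in every line and larger than that of any member, so smaller or uneven changes were not tried. The junction test recovered large changes in junctions that hold a small share of their site. Those junctions held more reads than the EXOG junction that was called. The junction test rarely called a changed junction that already held most of its site's reads: the call fell on the partner or was missed. An uncalled major junction is therefore not shown to be unchanged, and counts of calls leave such changes out.

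Junctions carry no gene names. Introns of GENCODE 29, on another build, were matched by exact length and common spacing, and no coordinates were converted. FASTKD5 rests on 1 matched intron and PTCD1 on 3. Annotated means present in GENCODE 29. Named were all 10 members, each list gene that passed, the 5 genes most like PTCD2, and junctions of at least 20 reads that moved by at least 5 points the same way in every line, with their competitors. A few genes that this rule or the marker lists name are not reported here. Of 76 listed genes, 75 were matched. Alternatives were RLE factors, DESeq2 1.42.0, limma 3.58.1 for junctions, other filters, donor grouping, a replicate block, and leaving out lines or replicates.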

Additional observations from a re-analysis of the deposited data

Results flagged for a closer look

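The response to mutant U1 differed between the 3 lines in 5 genes, by edgeR's test of the difference between lines, which measures technical spread only. FASTKD2 (adjusted p = 4.74e-05) went from -0.08 in JVM3 to -0.47 in HG3 on the log2 scale. PTCD3 (adjusted p = 7.58e-05) stood at 0.27 in HG3 and -0.04 in MEC1. LRPPRC (adjusted p = 0.0115) ran from -0.58 in JVM3 to -0.77 in MEC1. FASTKD5 (adjusted p = 0.0183) stood at 0.22 in JVM3 and -0.04 in HG3. SLIRP (adjusted p = 0.0491) stood at 0.20 in JVM3 and -0.07 in HG3.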

How the results depend on the processing

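LRPPRC fell and passed in 19 of 19 alternatives, with adjusted p from 5.81e-13 to 0.0312. The number of members that passed was 1, and 2 with no filter on low counts and with the 12 libraries under a replicate block. The added gene was FASTKD2 (adjusted p = 0.0181 and 0.00527, edgeR). The fit of 12 libraries counts technical replicates as separate observations. Its adjusted p-values and numbers of calls therefore overstate the evidence across lines. Of the list genes 4 passed, against 11 with DESeq2, 15 with no filter, 32 with the replicate block, 0 without JVM3, 1 without HG3 and 1 without MEC1. Over all genes 3.69% passed, against 8.38% with DESeq2, 6.08% with no filter, 23.9% with the replicate block, and 1.90%, 1.58% and 1.70% without JVM3, HG3 and MEC1. Leaving out single replicates gave 5 to 9 list genes, beside 3.81% to 4.73% of all genes. MTERF2 and NSUN4 lost their calls without any 1 of the 3 lines, MTERF2 also without JVM3_WT replicate 2 or MEC1_WT replicate 2, MT-ND3 without JVM3 or MEC1, and MT-CO3 without JVM3 or HG3. The members whose response differed between lines numbered 3 to 5 when single replicates were left out. Of the member junctions at acceptors 3 were called, beside 2.78% of all junctions, and 1 with limma, beside 0.812%. With limma PTCD3 (adjusted p = 0.0727), EXOG (0.153) and, by donor, FASTKD2 (0.0743) did not pass. A minimum of 10 or 50 reads gave 4 each, beside 1.96% and 4.75% of all junctions. Without JVM3, HG3 and MEC1 the counts were 2, 4 and 2, beside 2.95%, 1.87% and 2.13%. The alternatives for FASTKD2 by donor were chosen after seeing the data. Near 0, signs turned: PTCD3 stood at -0.0001599 without HG3, and FASTKD1 at 0.01315 without HG3 and at -0.02856 to 0.01231 without single replicates (0.0008329 without HG3_WT replicate 2). Deviations of libraries that share a replicate number correlated by 0.0965 in JVM3, 0.161 in HG3 and 0.357 in MEC1, all positive. The fit across lines used summed replicates. The fits of the 12 libraries as 6 groups did not take the numbers as pairs, so any spread shared by a number counts there as noise. With a replicate block within line, the members whose response differed still numbered 5. PTCD2's new exon rests on 84 acceptor reads and EXOG's on 210 in junctions of at least 20 reads, which limits both.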
